A study of Mus musculus with 9 samples.

Results

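The genes described here encode the subunits of ion channels that open when a neurotransmitter binds: the nicotinic acetylcholine, GABA-A, glycine and ionotropic glutamate receptors. They were chosen by gene symbol alone, and 57 of the 38720 genes in the count table met the rule. Of these, 15 encode nicotinic subunits, 19 GABA-A subunits, 5 glycine receptor subunits, 4 AMPA, 5 kainate, 7 NMDA and 2 delta-type glutamate receptor subunits. Chrna1, the alpha subunit of the muscle nicotinic receptor, is outside the rule.

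The values are RNA-seq read counts from 20 libraries of mouse thymic epithelial cells, in a study of Foxn1, the forkhead transcription factor that thymic epithelium needs to develop. The study asked what changes when Foxn1 is present at a reduced dose or is deleted. Cells were sorted without CD45 and with EpCAM and MHC class II, as cortical cells (cTEC, Ly51 positive and UEA1 negative) or medullary cells (mTEC, Ly51 negative and UEA1 positive). A transgenic set came from mice of nude background, in which endogenous Foxn1 is not functional, that carried a Foxn1 BAC transgene (wt*). Heterozygous mice (wt*/-::nu/nu) gave 3 cTEC and 2 mTEC libraries, and homozygous mice (wt*/wt*::nu/nu) gave 3 cTEC and 2 mTEC libraries. A deletion set held only cTEC, all taken 72 h after doxycycline from mice homozygous for beta5t-rtTA and for Foxn1fl/fl. The 5 deleted libraries came from mice heterozygous for the tetO-Cre1Jaw/J transgene, in which Cre removes exons 7 and 8 of Foxn1, and the 5 control libraries from mice that lacked it. Cre is under an activator named after beta5t, a proteasome subunit of cTEC, so deletion reaches only cells that express that activator. The labels do not say whether libraries of a group came from separate mice, so p-values measure the spread between these libraries.

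Channels of this kind are assembled from several subunits around a central pore. Acetylcholine and glutamate receptors mostly pass cations and excite a cell, while GABA-A and glycine receptors pass chloride and in the mature nervous system mostly inhibit it. In the thymus, medullary cells are known for transcribing, at low level and in few cells each, a wide range of genes otherwise confined to other tissues, to which developing T cells are made tolerant. Antibodies to the muscle nicotinic receptor are the main cause of myasthenia gravis, a disease linked to the thymus.

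Libraries held 20719630 to 22372633 counts. Values in CPM, edgeR's depth-scaled counts, are given on these totals. Foxn1 itself was at 351 to 579 CPM in control and 361 to 538 in deleted cTEC, a count over the whole gene that does not show the loss of exons 7 and 8. It was at 1144 to 1209 CPM in heterozygous and 1299 to 1484 in homozygous cTEC, and at 488 to 502 and 307 to 329 in the mTEC of these mice. Foxn1 RNA was therefore lower in heterozygous than homozygous cTEC but higher in heterozygous than homozygous mTEC, and the counts do not separate the transgene from the nude alleles. The labelled subsets matched their markers: 8 mTEC genes, Aire among them, summed to 5746 to 7130 CPM in mTEC and 206 to 932 in transgenic cTEC. A set of 8 cTEC genes summed to 1854 to 2065 CPM in heterozygous and 13562 to 15089 in homozygous cTEC, and to 210.2 to 694 in mTEC. Libraries of the deletion set were less uniform, at 528 to 1714 CPM of mTEC markers in control and 448 to 1749 in deleted cTEC. In bulk RNA such as this, fewer cells of a type and less RNA per cell cannot be told apart.

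The number of channel subunits with counts differed between the subsets. In homozygous mTEC all 57 had at least 1 count in both libraries, and in heterozygous mTEC 54 and 56 had. In cTEC the number was 36 to 43 in control, 37 to 45 in deleted, 38 to 42 in heterozygous and 33 to 36 in homozygous libraries. Across the 16 cTEC libraries, 36 of the 57 never exceeded 10 counts. Chrna6, Chrnb3, Gabrb1 and Gabrg1 had 0 counts in every cTEC library.

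By a stricter measure, at least 3 counts in every library of a group, 56 subunits were detected in homozygous and 45 in heterozygous mTEC, or 98.2% and 78.9% of them. The share of all genes in the table was 54.5% and 50.9%. In cTEC 19 subunits (33.3%) reached this measure in each of the control, deleted and homozygous groups and 27 (47.4%) in the heterozygous group, beside 40.9% to 42.1% of all genes. The larger groups meet this measure less easily, since every library must pass. All 15 nicotinic, 5 glycine, 4 AMPA, 5 kainate, 7 NMDA and 2 delta subunits were detected in homozygous mTEC, and 18 of 19 GABA-A subunits. In homozygous cTEC the numbers were 5 nicotinic, 5 GABA-A, 1 glycine, 1 AMPA, 3 kainate, 4 NMDA and 0 delta subunits. In that group 15 subunits had 0 counts in all 3 libraries, and 14 of these 15 had at least 3 counts in both homozygous mTEC libraries. A total of 0 counts over the group allows up to 3.

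**Figure D1:**
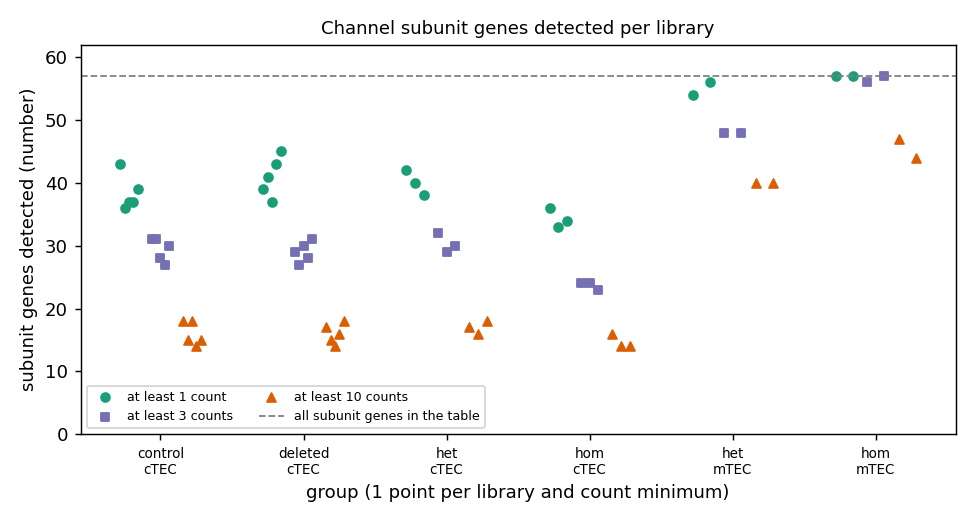
Channel subunit genes (of 57, dashed line) with at least 1, 3 or 10 counts in each library, by group (control, deleted, het for heterozygous and hom for homozygous transgenic). Every mTEC library lies above every cTEC library at each count minimum.

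The 10 with the largest mean CPM over the 20 libraries were Gria3 (79.5 CPM), Chrna9 (44.7), Glrb (44.2), Chrna4 (23.9), Chrnb1 (16.0), Grik5 (15.9), Grin2c (12.3), Grin2d (7.51), Gabre (7.38) and Chrnd (6.49). CPM is not divided by transcript length, so this order ranks counts and not levels per transcript. Summed over the 57 genes, CPM was 214 to 276 in control, 213 to 271 in deleted, 334 to 438 in heterozygous and 261 to 279 in homozygous cTEC. It was 441 to 444 in heterozygous and 489 to 494 in homozygous mTEC.

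**Figure D2:**
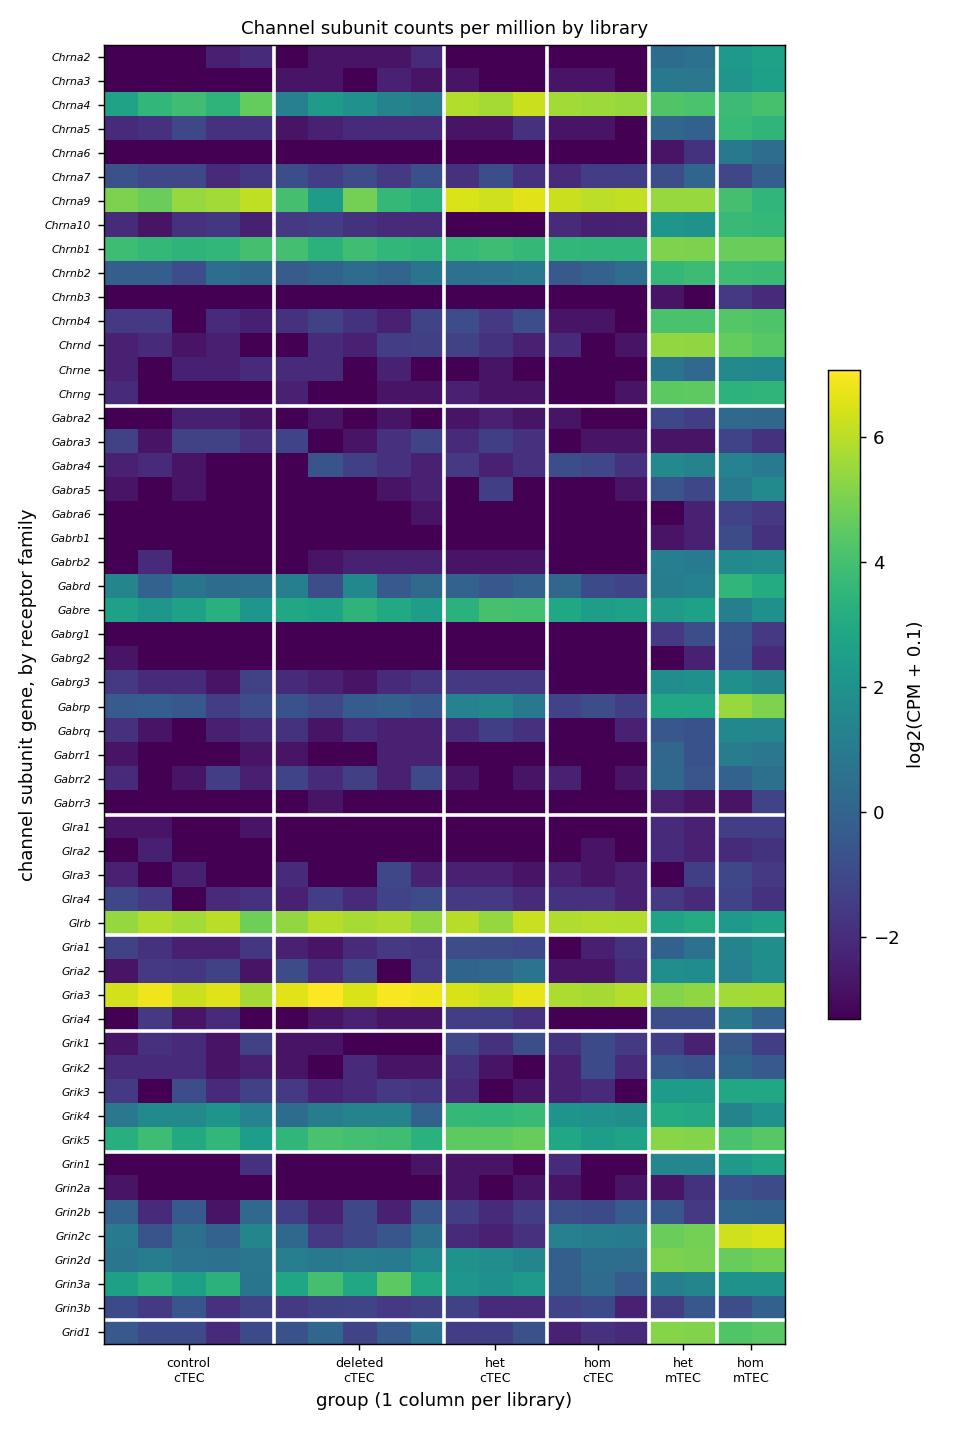
Colour shows log2(CPM + 0.1) for 54 of the 57 subunit genes (vertical axis, by receptor family: nicotinic, GABA-A, glycine, AMPA, kainate, NMDA, delta) in each of the 20 libraries (horizontal axis, by group). Chrna4, Chrna9, Glrb and Gria3 are bright in cTEC, and Chrnd, Grid1, Grin2d and many others are bright only in the 4 mTEC columns.

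Annotated spans of 8 subunit genes overlap another coding gene in GRCm38.p6 (RefSeq): Chrnb2 with Adar, Gabrd with Cfap74, Grik5 with Zfp574, Grin3a with Ppp3r2, Chrna10 with Art1, Grin3b with Tmem259, Chrne with 4930544D05Rik and Grin1 with Lrrc26. Whether counting used strand is not given in the sources used here, so some of their reads may belong to the partner gene.

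Promoter sequence is shown for 4 subunit genes whose RNA moved in different ways below: Chrng and Gabrp, high in mTEC and opposite in transgene dose there, Grin2c, lower in heterozygous cells of both subsets, and Glrb, high in cTEC. Sequences are the bases directly before the start of each gene in RefSeq for GRCm38.p6, 5′ to 3′ on the gene's strand, with annotated neighbouring genes left out. They lie at chr1:87205561-87205810 (plus strand, Chrng), chr11:33578979-33579207 (minus strand, Gabrp), chr11:115267298-115267493 (minus strand, Grin2c) and chr3:80913661-80913910 (minus strand, Glrb). Capitals mark GACGC, known as the core motif of Foxn1, or its reverse complement GCGTC.
Chrng: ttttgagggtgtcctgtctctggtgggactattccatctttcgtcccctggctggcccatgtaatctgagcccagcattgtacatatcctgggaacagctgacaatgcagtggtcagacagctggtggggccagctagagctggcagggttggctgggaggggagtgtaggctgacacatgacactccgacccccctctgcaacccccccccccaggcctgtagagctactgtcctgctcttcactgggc
Gabrp: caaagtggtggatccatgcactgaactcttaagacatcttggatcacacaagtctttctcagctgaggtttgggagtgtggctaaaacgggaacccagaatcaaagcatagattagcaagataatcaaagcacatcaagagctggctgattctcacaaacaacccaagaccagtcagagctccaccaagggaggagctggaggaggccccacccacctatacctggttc
Grin2c: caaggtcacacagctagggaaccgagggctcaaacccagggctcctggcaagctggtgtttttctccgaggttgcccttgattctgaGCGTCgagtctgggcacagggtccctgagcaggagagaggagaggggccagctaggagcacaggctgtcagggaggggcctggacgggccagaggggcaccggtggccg
Glrb: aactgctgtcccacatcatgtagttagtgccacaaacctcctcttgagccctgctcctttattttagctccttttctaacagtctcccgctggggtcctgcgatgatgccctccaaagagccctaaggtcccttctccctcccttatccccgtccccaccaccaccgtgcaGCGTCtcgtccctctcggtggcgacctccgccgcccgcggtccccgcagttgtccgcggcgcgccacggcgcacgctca

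Grin2c and Glrb hold 1 match each and Chrng and Gabrp none. Of the 57 subunit genes, 40 were matched by symbol to a RefSeq promoter. Searched on both strands over 250 bases before the start, 11 of these 40 (27.5%) held the motif, as did 6715 of 27025 promoters of all genes (24.8%). The 11 were Chrna3, Chrna5, Chrnb1, Gabrb2, Gabrg3, Gabrr1, Glrb, Grik3, Grik4, Grin1 and Grin2c. A match is a string of letters and not a bound site, and a window without it says only that these letters are absent there.

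The first comparison set mTEC against cTEC of mice with the same transgene dose. In homozygous mice most tested subunits were higher in mTEC, led by Grin2c and Grin2d of the NMDA family, Grid1, Gabrp and the muscle-type nicotinic genes Chrnd and Chrng. Only 6 were lower, Chrna4, Chrna9, Glrb, Gabre, Gria3 and Grik4. Of 45 subunits that passed the filter on low counts, 36 were higher and 6 lower at an adjusted p of 0.05 (edgeR quasi-likelihood test, Benjamini-Hochberg over 19222 genes). Among all genes tested, 82.6% were called, 43.2% higher and 39.4% lower. The other 12 subunits had too few counts to be tested. A group was taken to reach 10 counts where any of its libraries did, with 10 counts scaled to the median depth. By this measure 29 of the 45 reached 10 counts only in mTEC, so that a difference could hardly go the other way. Of the 16 that reached it in both subsets, 9 were higher and 6 lower. In heterozygous mice 35 of 45 were higher in mTEC and 7 lower, beside 40.4% and 31.6% of all genes (72% in either direction). There 25 of the 45 reached 10 counts, by the same measure, only in mTEC and 3 in neither subset. Of the 17 that reached it in both, 10 were higher and 7 lower.

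Chrnd and Chrng encode the delta and gamma subunits of the muscle nicotinic receptor, gamma being the fetal form. Chrnd had 532 and 454 counts in homozygous mTEC and 3, 0 and 1 in homozygous cTEC, and 884 and 859 against 7, 4 and 2 in heterozygous cells. Chrng had 226 and 240 counts against 0, 0 and 1 in homozygous cells, and 470 and 476 against 2, 1 and 1 in heterozygous cells. Neither gene exceeded 7 counts in any cTEC library of either set, so mTEC and cTEC were fully separated. In homozygous cells the fitted log2 fold change of Chrnd was 8.16 ± 0.30 (SE, adjusted p = 1.99e-11). For Chrng the ratio of CPM over the summed 466 and 1 counts was 696, with an exact 95% interval of 124.2 to 27530, which covers counting error only. Chrne, the adult epsilon form, had 63 and 60 counts against 0 in homozygous cTEC, at least 61.2-fold higher in mTEC taking 3 counts as the limit over the group. Chrnb1, the muscle beta subunit, differed less, at 26.2 ± 0.232 CPM in homozygous mTEC (n = 2) and 11.5 ± 0.216 in homozygous cTEC (n = 3), with a log2 fold change of 0.95 ± 0.09.

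The neuronal nicotinic genes split. Chrna4 and Chrna9 were higher in cTEC, and the others that passed were higher in mTEC. Chrna9, an alpha subunit best known from cochlear hair cells, had 1626, 1478 and 1469 counts in homozygous cTEC and 343 and 247 in homozygous mTEC. Every cTEC library lay above every mTEC library, and the fall in mTEC was 6.15-fold (13.7 ± 3.14 against 71.0 ± 4.61 CPM, log2 -2.62 ± 0.12, adjusted p = 2.29e-10). Chrna4, which pairs with beta2 in the most common brain receptor, had 1062, 1026 and 924 counts in homozygous cTEC and 299 and 358 in mTEC. It was lower in mTEC by the same margin at both doses, with log2 fold changes of -1.86 ± 0.16 in homozygous and -1.86 ± 0.15 in heterozygous cells. Its usual partner Chrnb2 went the other way, at 308 and 291 counts in homozygous mTEC and 14, 19 and 26 in cTEC (log2 3.67 ± 0.19). Chrna10, the partner of Chrna9 in hair cells, had 282 and 259 counts in homozygous mTEC and 3, 2 and 2 in cTEC (6.54 ± 0.26). Neither partner therefore followed the alpha gene it is known to assemble with.

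Chrna5, Chrna3 and Chrnb4 lie together on chromosome 9 and encode subunits of the ganglionic receptor. In homozygous mTEC Chrnb4 had 430 and 405 counts, Chrna5 286 and 237, and Chrna3 92 and 126, and none of them exceeded 1 count in a homozygous cTEC library. The CPM ratios were 623 (exact 95% interval 172 to 5154) for Chrnb4, 390 (107.5 to 3231) for Chrna5 and 163 (44.5 to 1352) for Chrna3. Chrna2 had 106 and 132 counts against 0, at least 118.4-fold. Chrna6 had 38 and 26 against 0, at least 31.8-fold. Chrna7, the subunit of homomeric neuronal receptors, had 8 and 17 counts in homozygous mTEC and 3, 6 and 6 in cTEC and did not pass (adjusted p = 0.0921).

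Among GABA-A subunits, 13 of the 14 tested were higher in mTEC at each dose, and only Gabre was lower. Of all genes, 43.2% were higher in homozygous and 40.4% in heterozygous mTEC. In homozygous cells 10 of the 14 reached 10 counts, in any library as above, only in mTEC, and in heterozygous cells 8 did. At each dose 4 reached it in both subsets, of which 3 were higher and 1 lower. Gabrp, the pi subunit known mainly from epithelia outside the brain, had 950 and 719 counts in homozygous mTEC and 7, 10 and 6 in homozygous cTEC. The groups did not overlap, and the difference was 90.2-fold (log2 6.50 ± 0.23). In heterozygous cells it was smaller, at 159 and 156 against 52, 60 and 38 counts (1.60 ± 0.19). Gabrb2, Gabrg3, Gabrr1 and Gabrg1 had 0 counts in homozygous cTEC and were at least 68.2, 66.7, 39.8 and 8.46 times higher in mTEC. Gabre, the epsilon subunit, had 47 and 79 counts in homozygous mTEC and 154, 123 and 127 in cTEC (-1.35 ± 0.26, adjusted p = 3.16e-04).

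Glrb, the beta subunit that ties glycine receptors to the scaffold gephyrin, was the only glycine receptor gene with enough counts to be tested. It had 1241, 1332 and 1231 counts in homozygous cTEC and 105 and 131 in mTEC. The 2 subsets were far apart, with a 12.8-fold fall in mTEC (5.46 ± 0.851 against 59.0 ± 1.24 CPM, log2 -3.67 ± 0.22, adjusted p = 2.40e-09). In heterozygous cells it fell to 7.47 ± 1.18 from 59.9 ± 15.8 CPM (-3.09 ± 0.21). Glra1 to Glra4, the ligand-binding alpha subunits, had at most 8 counts in any of the 4 mTEC libraries and at most 9 in any cTEC library, so cTEC carried the beta gene with almost no counts of an alpha gene.

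Grin2c, an NMDA receptor subunit of adult cerebellum, had the most counts of any subunit in homozygous mTEC. It had 1741 and 1976 counts in homozygous mTEC and 48, 44 and 38 in homozygous cTEC, and 573 and 633 against 3, 2 and 4 in heterozygous cells. Each mTEC library lay above every cTEC library, with log2 fold changes of 5.17 ± 0.11 (adjusted p = 1.86e-13) and 7.54 ± 0.18. Grin2d, another NMDA subunit, had 549 and 630 counts against 17, 28 and 26 in homozygous cells, a 20.8-fold difference (4.38 ± 0.18). Grin1, the subunit every NMDA receptor needs, had 106 and 134 counts in homozygous mTEC against 3, 0 and 0 in cTEC. In cTEC of both sets Grin1 never exceeded 4 counts. Grid1, a delta-type subunit that binds cerebellins, had 407 and 466 counts in homozygous mTEC and 2, 4 and 3 in cTEC (6.88 ± 0.22).

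The AMPA and kainate genes held exceptions to the general direction. Gria3, an AMPA subunit, was at 50.5 ± 1.21 CPM in homozygous mTEC and 55.8 ± 4.84 in homozygous cTEC (-0.39 ± 0.12, adjusted p = 0.00849). The groups overlapped in CPM, and the call was lost with size factors by relative log expression (RLE), without factors, with DESeq2, without the filter, and without homozygous mTEC library 1 (adjusted p = 0.0757). In heterozygous cells Gria3 was lower in mTEC without overlap, at 38.3 ± 3.16 against 87.8 ± 14.7 CPM (-1.28 ± 0.12). Gria1, Gria2 and Gria4 were higher in homozygous mTEC, as in Gria2, with 48 and 72 counts against 1, 1 and 3 (4.83 ± 0.44). Grik4, a high-affinity kainate subunit, was lower in mTEC by 0.52 ± 0.19 in homozygous cells, where the groups overlapped. That call was lost with RLE, without factors and with DESeq2. It was also lost without homozygous cTEC library 1 (adjusted p = 0.0570), homozygous mTEC library 1 (0.211), heterozygous cTEC library 3 (0.0539), or heterozygous mTEC library 1 (0.0538) or 2 (0.0537). Grik5, the other high-affinity subunit, was higher in mTEC at both doses (1.33 ± 0.13 and 0.55 ± 0.11).

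Scaling mattered for all genes in this comparison. With RLE the median log2 fold change of all genes between homozygous subsets moved from 0.04 to 0.22, and the calls from 8303 higher and 7577 lower to 9189 and 6219. Without factors the median was 0.28, with 9581 higher and 5724 lower. The median over the 45 tested subunits was 5.38, or 4.80 with group totals of 3 or fewer counts set at 3. In heterozygous cells it was 2.90 or 2.62.

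Summed markers of most other cells that the sorts could hold were higher in mTEC than in transgenic cTEC. Fibroblast genes in heterozygous cells and thymocyte genes in homozygous cells were exceptions. All 8 neuron genes (Tubb3, Snap25 and others) were counted in mTEC and summed to 301 to 303 CPM in heterozygous and 371 to 380 in homozygous mTEC, beside 3.55 to 15.8 in transgenic cTEC. Elavl3 was at 0 in heterozygous and Rbfox3 at 0 in homozygous cTEC. The 6 neuroendocrine genes summed to 350 to 361 and 314 to 343 CPM in mTEC and 2.15 to 15.3 in transgenic cTEC. For 7 skeletal muscle genes the sums were 539 to 595 and 353 to 402 in mTEC and 3.69 to 20.5 in transgenic cTEC, with Myod1 at 0 in heterozygous cTEC. The 6 tuft cell genes summed to 373 to 457 and 1074 to 1194 in mTEC and 37.0 to 47.7 in transgenic cTEC. The 7 Schwann and glial genes summed to 77.1 to 79.7 and 117.6 to 117.8 in mTEC and 24.8 to 38.6 in transgenic cTEC, with Foxd3 at 0 in heterozygous cTEC. The 5 macrophage and dendritic genes summed to 103 to 105 CPM in heterozygous and 509 to 602 in homozygous mTEC, beside 6.65 to 8.30 and 3.47 to 5.42 in the cTEC of these mice. The 5 endothelial genes summed to 16.9 to 41.0 and 34.7 to 40.9 in mTEC and 1.44 to 2.19 and 3.76 to 4.91 in cTEC. The 8 fibroblast genes summed to 169 to 201 and 233 to 255 in mTEC and 220 to 243 and 44.7 to 50.4 in cTEC. For 10 thymocyte genes the sums were 32.8 to 33.5 and 56.5 to 72.9 in mTEC and 9.73 to 16.5 and 55.2 to 88.8 in cTEC. The part of such cells or transcripts in the subunit counts was not tested.

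The second comparison set heterozygous against homozygous transgenic cTEC, that is, fewer against more copies of the transgene. Of 45 subunits tested, 14 were higher and 3 lower in heterozygous cTEC, beside 20.9% higher and 21.9% lower, 42.8% in all, among the 19222 genes tested. The higher ones were all 4 AMPA genes, Grik4 and Grik5, Grin2d and Grin3a, 5 GABA-A genes and Chrnb4. The lower ones were Grin2c, Grin2b and Chrna10. Only 13 of the 45 reached 10 counts in some library of each group, of which 7 were higher and 0 lower. Another 4 reached it only in heterozygous cTEC (2 higher), 3 only in homozygous cTEC (2 lower), and 25 in neither (5 higher, 1 lower). The median log2 fold change was 0.61 over the 45, or 0.28 with group totals of 3 or fewer counts set at 3, and 0.00 over all genes. With the 6 cTEC libraries fitted alone, 7 of the 17 called subunits had too few counts to be tested: Chrnb4, Gria1, Gria4, Gabrg3, Gabrq, Grin2b and Chrna10.

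Both high-affinity kainate subunit genes were higher in heterozygous cTEC. Grik5 had 494, 488 and 558 counts in heterozygous and 159, 123 and 131 in homozygous cTEC. Grik4 had 264, 253 and 280 against 87, 82 and 72. Neither pair of groups overlapped. Grik5 was 3.35-fold higher (23.6 ± 1.74 against 6.41 ± 0.942 CPM, n = 3 each, log2 1.75 ± 0.11, edgeR adjusted p = 5.78e-08). The log2 fold change of Grik4 was 1.57 ± 0.14 (1.27e-06). Grik1, Grik2 and Grik3, the low-affinity subunits, had at most 10 counts in any transgenic cTEC library.

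The NMDA genes went both ways. Grin2c fell from 48, 44 and 38 counts in homozygous to 3, 2 and 4 in heterozygous cTEC. The groups were far apart, at 0.138 ± 0.0454 against 2.02 ± 0.219 CPM, a 15.4-fold fall (log2 -3.95 ± 0.28, adjusted p = 1.07e-07). Grin3a, a subunit that lowers calcium entry, rose from 17, 25 and 15 to 94, 79 and 102 counts (2.11 ± 0.21, 3.14e-06). Grin2d rose from 17, 28 and 26 to 87, 73 and 58 (1.46 ± 0.21, 9.22e-05). Grin2b, a subunit of immature brain, had 6, 3 and 6 against 10, 9 and 15 counts (-1.31 ± 0.45, adjusted p = 0.0306). That call was lost without heterozygous library 2 (adjusted p = 0.103) or homozygous library 3 (0.127), with DESeq2 (0.0960) and without the filter (0.0568).

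Among AMPA genes, Gria2, the subunit that makes these receptors impermeable to calcium, had 20, 21 and 32 counts in heterozygous and 1, 1 and 3 in homozygous cTEC. The groups did not overlap, and the log2 fold change was 3.63 ± 0.49 (adjusted p = 4.46e-05). Gria3 was at 87.8 ± 14.7 against 55.8 ± 4.84 CPM, without overlap, with a smaller change of 0.52 ± 0.10 (0.00114). Gria4 had 6, 6 and 4 counts against 0, at least 5.27-fold, and Gria1 had 10, 9 and 8 against 0, 2 and 4 (1.96). The call of Gria1 was lost without the filter (edgeR adjusted p = 0.0647) and without heterozygous cTEC library 1 (0.0615) or homozygous cTEC library 1 (0.0835) or 2 (0.0709).

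Of 14 GABA-A genes tested, 5 were called higher. Gabrp had 52, 60 and 38 counts in heterozygous and 7, 10 and 6 in homozygous cTEC (2.30 ± 0.523 against 0.355 ± 0.0874 CPM, log2 2.54 ± 0.30, adjusted p = 1.50e-05). Gabre had 217, 361 and 345 against 154, 123 and 127 (1.04 ± 0.20, 7.56e-04). In both every heterozygous library lay above every homozygous one. Gabrg3, a gamma subunit gene, had 5 counts in each heterozygous library and 0 in the homozygous ones, at least 4.94-fold. Gabrq, the theta subunit, had 3, 6 and 4 against 0, 0 and 2 counts, a CPM ratio of 6.42 (exact 95% interval 1.45 to 58.6). The call of Gabrq was lost without the filter (edgeR adjusted p = 0.0629) and with DESeq2 (0.0694). It was also lost without heterozygous cTEC library 2 (adjusted p = 0.104) or 3 (0.0535), homozygous cTEC library 1 (0.111) or 2 (0.112), or homozygous mTEC library 1 (0.0514) or 2 (0.0516).

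Of 14 nicotinic genes tested in cTEC, Chrnb4 was called higher and Chrna10 lower in heterozygous cells. Chrnb4 had 10, 5 and 10 counts against 1, 1 and 0, a CPM ratio of 12.4 (exact 95% interval 3.08 to 107.6, adjusted p = 7.97e-04). Chrna10 had 0 counts in all heterozygous libraries and 3, 2 and 2 in homozygous ones, at least 2.36-fold lower (adjusted p = 0.00712). Chrna4 and Chrna9, the nicotinic genes with most counts in cTEC, were not called. Their heterozygous libraries all lay above the homozygous ones, with log2 fold changes of 0.28 (adjusted p = 0.0793) and 0.21 (0.0910). Chrna9 was called higher without factors (adjusted p = 0.00819), with the 6 cTEC libraries fitted alone (0.0342) and without heterozygous cTEC library 2 (0.0196) or homozygous mTEC library 1 (0.0449) or 2 (0.0448). Chrna4 was called higher without factors (edgeR adjusted p = 0.0132) and without heterozygous cTEC library 2 (0.00358). Chrnb2 was called higher without factors (edgeR adjusted p = 0.0198) and without homozygous cTEC library 3 (0.0138). Glrb did not pass either, at 59.9 ± 15.8 against 59.0 ± 1.24 CPM (-0.11, 0.590).

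Other cell markers differed between these groups too. The mTEC genes summed to 751 to 932 CPM in heterozygous and 206 to 235 in homozygous cTEC, and 8 fibroblast genes to 220 to 243 and 44.7 to 50.4. The neuron genes summed to 4.41 to 15.8 and 3.55 to 4.31 CPM, the neuroendocrine genes to 4.73 to 15.3 and 2.15 to 3.31, and the muscle genes to 15.3 to 20.5 and 3.69 to 4.66. The part of these cells in the higher subunit counts of heterozygous cTEC was not tested.

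The same contrast in mTEC gave the opposite balance. Of 45 subunits tested, 8 were higher and 22 lower in heterozygous mTEC, beside 28.9% and 30.8% of all genes, or 59.7% called. Of the 42 that reached 10 counts in some library of each group, 8 were higher and 19 lower. The 3 that reached it only in homozygous mTEC were all lower. The median was -0.45, and 0.01 over all genes. By family, GABA-A had 1 higher and 9 lower, nicotinic 4 and 6, AMPA 0 and 3, NMDA 0 and 3 and kainate 2 and 0. With DESeq2 24 of the 30 calls held. Among those lost were Gabrb2 and Gabrr1 of the lower GABA-A genes, Gria4, Chrne and Chrnb1. Each of the 3 AMPA calls was lost in at least 1 fit without a single library. Grin2c, Gabrp and Chrna5 led the genes that fell, and Chrna9, Grik5 and the muscle-type Chrng those that rose.

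The muscle-type and hair cell nicotinic genes were divided. Chrna9 had 945 and 942 counts in heterozygous and 343 and 247 in homozygous mTEC, a 3.31-fold rise (44.5 ± 0.0313 against 13.7 ± 3.14 CPM, n = 2 each, log2 1.73 ± 0.13, edgeR adjusted p = 4.03e-07). Its partner Chrna10 fell, from 282 and 259 to 92 and 81 counts (-1.59 ± 0.17, 1.48e-05). In neither did the groups overlap, so the pair moved in opposite directions. Chrng rose from 226 and 240 to 470 and 476 counts (1.07 ± 0.14, 3.22e-05) and Chrnd, its neighbour on chromosome 1 (chr1:87190597-87200070, before Chrng at chr1:87205811-87211835 in GRCm38.p6), from 532 and 454 to 884 and 859 (0.87 ± 0.15, 2.65e-04). Chrnb1 rose by less, to 33.1 ± 0.215 from 26.2 ± 0.232 CPM (0.36 ± 0.09, adjusted p = 0.00452, but 0.0983 with DESeq2). The adult form Chrne fell, to 33 and 23 counts from 63 and 60 (-1.08 ± 0.29, 0.00763). The call of Chrne was lost with DESeq2 (adjusted p = 0.0620) and without heterozygous mTEC library 2 (0.0815) or homozygous mTEC library 1 (0.0592).

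The ganglionic cluster on chromosome 9 was uneven. Chrna5 fell from 286 and 237 counts to 21 and 18, a 12.9-fold fall (0.919 ± 0.0986 against 12.1 ± 1.61 CPM, log2 -3.69 ± 0.25, adjusted p = 1.76e-07). Chrna3, whose annotated span overlaps that of Chrna5, fell from 92 and 126 to 37 and 35 (-1.55 ± 0.26, 2.63e-04). Chrnb4, beside them, had 362 and 360 against 430 and 405 counts and did not pass (-0.16 ± 0.14, adjusted p = 0.342). Chrna2 fell from 106 and 132 to 25 and 29 (-2.09 ± 0.26, 1.35e-04) and Chrna6 from 38 and 26 to 1 and 4 (-3.56 ± 0.55).

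Gabrp fell from 950 and 719 counts to 159 and 156 (38.6 ± 7.57 to 7.43 ± 0.0885 CPM, log2 -2.36 ± 0.17, adjusted p = 3.02e-07). Gabrd, the delta subunit of receptors outside synapses, fell from 248 and 179 to 43 and 49 (-2.16 ± 0.27, 2.62e-05) and Gabrq from 60 and 58 to 13 and 11 (-2.24 ± 0.34, 1.24e-04). The groups did not overlap in any of these. Gabra5, an alpha subunit, had a log2 fold change of -2.31 ± 0.53, and Gabrg3 one of 0.20, not called. Gabre was the GABA-A gene that rose, to 114 and 131 counts from 47 and 79 (1.01 ± 0.29, adjusted p = 0.00841). Without homozygous mTEC library 1 it was not called (log2 0.69).

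Grin2c fell in mTEC as it did in cTEC, from 1741 and 1976 to 573 and 633 counts (28.4 ± 2.04 against 86.0 ± 7.68 CPM, 2.98-fold, log2 -1.57 ± 0.10, adjusted p = 7.37e-08). Grin1 also fell (-1.02 ± 0.27), a call lost without homozygous mTEC library 2 (edgeR adjusted p = 0.0795), while Grin2d did not pass (0.24 ± 0.14, adjusted p = 0.158). Grik5 rose from 371 and 454 to 794 and 758 counts (0.96 ± 0.12, 2.96e-05) and Grik4 from 52 and 81 to 179 and 164 (1.41 ± 0.19, 3.61e-05). Both kainate genes were therefore higher in heterozygous cells of either subset. Grid1 rose from 407 and 466 to 777 and 738 (0.84 ± 0.12, 7.77e-05).

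Here too RLE moved the median of all genes, to -0.12, with 3911 higher and 7082 lower calls in place of 5550 and 5922. Tuft cell genes summed to 373 to 457 CPM in heterozygous and 1074 to 1194 in homozygous mTEC, 5 macrophage and dendritic genes to 103 to 105 and 509 to 602, and muscle genes to 539 to 595 and 353 to 402. Their part in the subunit differences was not tested.

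Whether dose acted differently in the subsets was tested as an interaction, the mTEC difference minus the cTEC difference. It passed for 18 of 45 subunits, 3 positive and 15 negative, beside 25.2% positive and 17.2% negative among all genes, or 42.5% called. All 4 AMPA genes and 6 GABA-A genes were among the 15. With DESeq2, and also without the filter, 16 of the 18 calls held, and a GABA-A gene of the 15 was among those lost. Gabrp had the smallest adjusted p, with a log2 difference of -4.89 ± 0.34 (2.81e-07): in heterozygous cells it was higher in cTEC and lower in mTEC. The 2 contrasts also had opposite signs in Grin3a (-2.83 ± 0.31, 1.25e-05), whose log2 fold change was 2.11 in cTEC and -0.71 in mTEC, and in Gria3 (-0.90 ± 0.17, 8.27e-04). The mTEC call of Grin3a was lost without heterozygous mTEC library 1 (edgeR adjusted p = 0.119) or homozygous mTEC library 2 (0.0626). That of Gria3 was lost without the filter (edgeR adjusted p = 0.0522) and without heterozygous mTEC library 1 (0.140) or homozygous mTEC library 1 (0.0995) or 2 (0.131). Grin3a therefore lay above cTEC in homozygous mTEC (1.91 ± 0.23) and below it in heterozygous mTEC (-0.92 ± 0.20). Gria2 (-3.37 ± 0.58) and Chrnb4 (-3.45 ± 0.64) rose in cTEC and were not called in mTEC.

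For Chrna9 the interaction was 1.52 ± 0.16 (edgeR adjusted p = 8.71e-06), from log2 fold changes of 1.73 in mTEC and 0.21, not called, in cTEC. For Grin2c it was 2.37 ± 0.33 (8.21e-05), since it fell by more in cTEC. Gabra4, an alpha subunit, was at the edge of the threshold (1.50 ± 0.56, adjusted p = 0.0470). It was lost in the fits without heterozygous cTEC library 2 (adjusted p = 0.118) or 3 (0.0807), heterozygous mTEC library 1 (0.116) or 2 (0.0640), homozygous cTEC library 1 (0.148) or 2 (0.0949), or homozygous mTEC library 2 (0.103). It was also lost with RLE, without factors, without the filter and with DESeq2. Among all genes the split of this test turned with scaling, from 4848 positive and 3314 negative to 3403 and 3925 with RLE and 3101 and 4123 without factors.

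**Figure D3:**
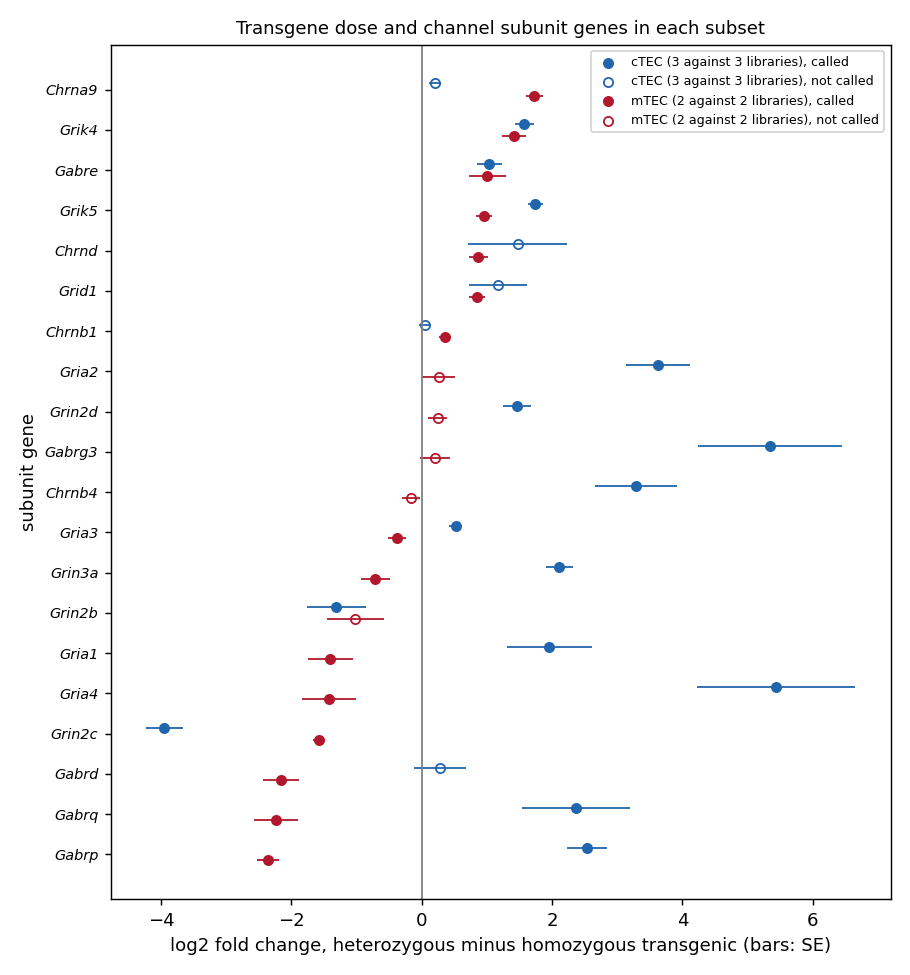
Log2 fold change of heterozygous over homozygous transgenic cells, with SE, for 20 of the subunit genes called in either subset and with at least 10 counts over a cTEC group. Filled points passed an adjusted p of 0.05, and the cTEC points of Gabrg3 and Gria4 are fitted against 0 counts. Grik4, Gabre and Grik5 lie to the right in both subsets, Grin2c to the left in both, and Gabrp, Grin3a and Gria3 on opposite sides.

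Of the genes counted most in cTEC, Glrb did not pass in mTEC (log2 0.47) or in the interaction, and Chrna4 passed neither dose contrast (0.28 in cTEC, 0.29 in mTEC).

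The third comparison, the deletion set, asked what changed in cTEC 72 h after Foxn1 was deleted. Only 16 of the 57 subunits had enough counts to be tested, and 1 of these, Chrna4, was called lower and 0 higher (edgeR quasi-likelihood test). Among 15224 genes tested, 1.97% were called, 1.69% lower and 0.282% higher. An unadjusted p under 0.05 was reached by 3 subunits.

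Chrna4 had 138, 258, 330, 238 and 545 counts in control and 48, 116, 79, 53 and 42 in deleted cTEC. Each deleted library lay below each control library. Mean CPM was 3.15 ± 1.38 in deleted against 13.6 ± 6.74 in control cTEC (SD, n = 5 each), a 4.42-fold fall (log2 -2.14 ± 0.39, adjusted p = 0.0244). The call depended on which libraries were fitted. It was lost without control library 3 (adjusted p = 0.0741) or deleted library 1 (0.0922), 3 (0.0505), 4 (0.0919) or 5 (0.0778), and with limma-voom. Over all genes, lower calls were 257 with every library and 27 to 123 with 1 of these left out. The log2 fold change stayed between -2.40 and -1.80 over the 10 fits without 1 library. In the same libraries the 8 cTEC marker genes summed to 1625 to 2320 CPM with the deletion and 4871 to 17650 without it, and the fibroblast genes to 789 to 1450 and 424 to 885. Their part in the fall of Chrna4 was not tested.

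Chrna9 had 707, 579, 992, 1105 and 1526 counts in control and 344, 115, 626, 261 and 212 in deleted cTEC. The groups overlapped through deleted library 3, and the difference was not called (14.7 ± 9.37 against 44.3 ± 16.4 CPM, log2 -1.61 ± 0.43, adjusted p = 0.0835). It was called with DESeq2, without control library 2 and without deleted library 3. Grin2c, lower in heterozygous than homozygous cTEC, had 39, 12, 30, 19 and 57 counts in control and 22, 5, 8, 13 and 28 in deleted cTEC (-1.02 ± 0.52, adjusted p = 0.310). The 2 groups overlapped.

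Of the subunits called higher in heterozygous cTEC, those that could be tested gave no call here. Gria1, Gria2, Gria4, Gabrg3, Gabrq and Chrnb4 had too few counts for a test. For Grik5 the log2 fold change was 0.47 ± 0.23 (edgeR adjusted p = 0.292), for Grin3a 0.84 ± 0.46 (0.346) and for Grin2d 0.39 ± 0.21 (0.334). Grik4 had the other sign, -0.68 ± 0.33 (0.285). Gria3, with the most counts, was at 113 ± 18.7 CPM in deleted and 83.5 ± 22.8 in control cTEC (0.42 ± 0.17, 0.212). Glrb was at 51.4 ± 9.57 against 49.0 ± 14.3 CPM (0.06 ± 0.19, 0.903) and Chrnb1 at 12.6 ± 2.48 against 13.0 ± 2.17. None of these missed calls shows that the gene did not change. Chrnd, Chrng and Gabrp, high in mTEC, stayed at the cTEC level in this set, with at most 6, 3 and 18 counts in any library.

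**Figure D4:**
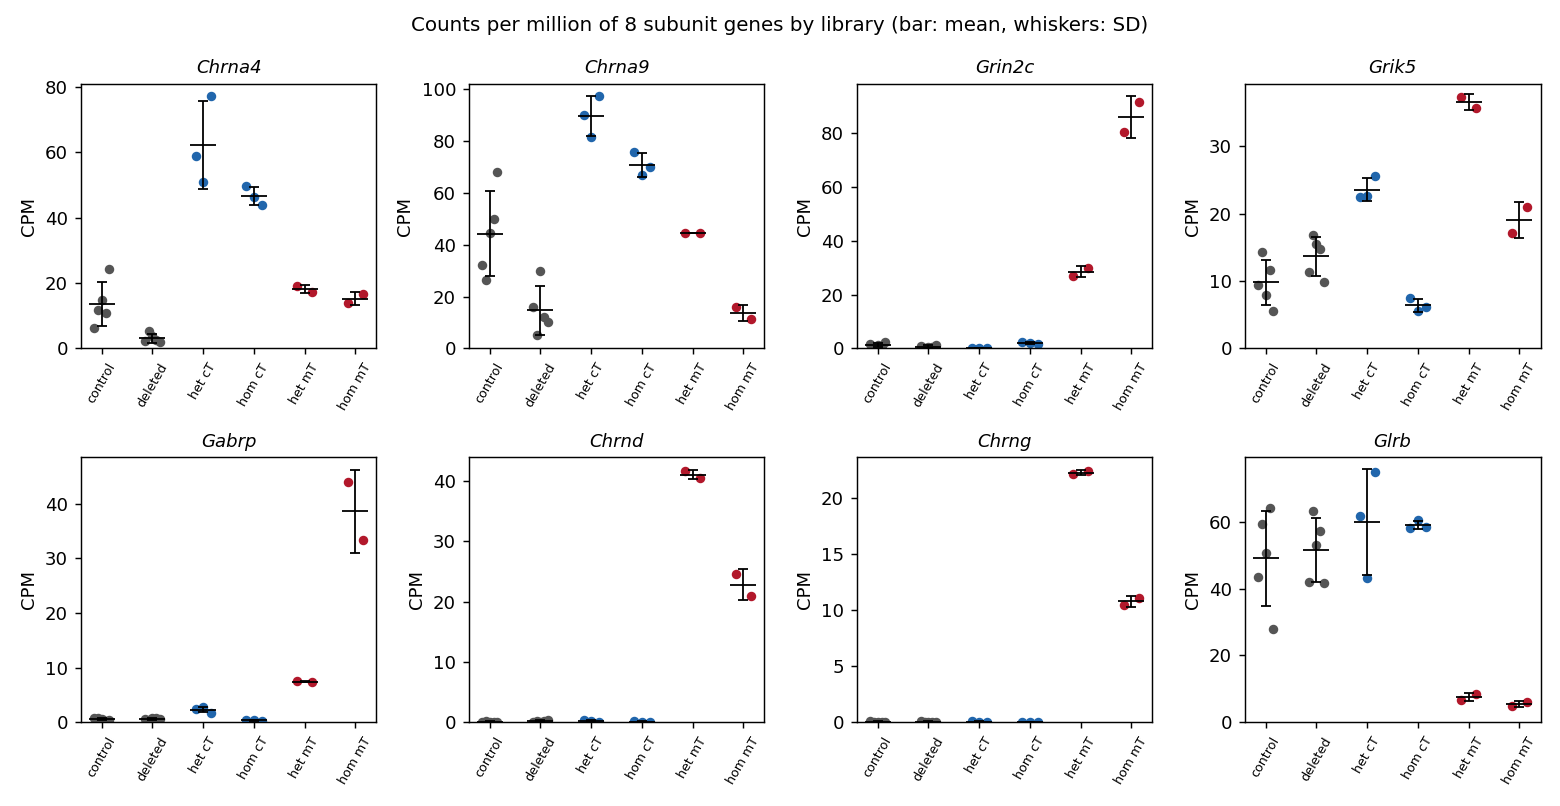
CPM of 8 subunit genes in each library (points) with group mean and SD, for control and deleted cTEC, and for heterozygous (het) and homozygous (hom) transgenic cTEC (cT) and mTEC (mT). Chrna4 in deleted cTEC lies below every control library, Grin2c, Gabrp, Chrnd and Chrng are high only in mTEC, and Glrb is low only there.

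Genes that work with these channels were counted in 4 lists, chosen like the subunits with earlier results of these data known. Of 41 assembly and auxiliary genes in the table, 38 were tested in the transgenic set and 25 in the deletion set. Between homozygous subsets 24 were higher in mTEC and 12 lower, beside 43.2% and 39.4% of all genes tested, with a median log2 fold change of 1.40. Of the 24, 13 reached the count minimum, set as for the subunits, only in mTEC. Of the 25 genes that reached it in both subsets, 11 were higher and 12 lower. Ric3, a chaperone of nicotinic receptors, was higher (2.83 ± 0.12), while the scaffold genes Grip1 (-2.42 ± 0.09) and Dlg1 (-1.25 ± 0.06) were lower. In heterozygous cells 12 were higher and 8 lower in cTEC, beside 20.9% and 21.9% of all genes, and 14 were higher and 12 lower in mTEC, beside 28.9% and 30.8%. In the deletion set 1.97% of all genes were called. The same shares of all genes stand behind the counts of the other 3 lists. In cTEC Shisa7 rose (5.22 ± 0.45), as did Dlg4, the scaffold PSD-95 (1.21 ± 0.10), while Dlg2 (-0.47 ± 0.06) and Gabarap (-0.40 ± 0.07) fell. In mTEC Shisa9, an AMPA receptor auxiliary protein (1.25 ± 0.10), and Lrp4, the agrin receptor of muscle (0.79 ± 0.08), rose, and Cbln4 (-2.17 ± 0.26) and Cacng8 (-2.52 ± 0.32) fell. In deleted cTEC Shisa6, another AMPA receptor auxiliary protein, fell from 22.3 ± 12.2 to 4.71 ± 1.13 CPM (-2.28 ± 0.36, edgeR adjusted p = 0.0140).

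Of 24 genes for making, clearing and carrying the transmitters, 16 were higher and 5 lower in homozygous mTEC. Of the 16, 12 reached the count minimum only in mTEC, so a difference could hardly go the other way. Of the 12 genes that reached it in both subsets, 4 were higher and 5 lower. Chat, which makes acetylcholine, was at 19.0 ± 0.722 CPM in homozygous mTEC and 0.0467 in cTEC, on 822 and 3 counts, and Gad1, which makes GABA, was at 16.9 ± 0.326 CPM in mTEC, on 728 counts against 3. Abat, which breaks GABA down, was far higher in cTEC (-5.14 ± 0.12), and Bche, a cholinesterase, also (-0.76 ± 0.07). In heterozygous cells Ache, the acetylcholinesterase (-2.31 ± 0.15), and Abat (-1.59 ± 0.08) fell in cTEC, where 3 of the list rose, Slc6a13, a GABA transporter (2.05 ± 0.25), and Glul, glutamine synthetase (0.62 ± 0.08), among them. In mTEC 16 of 24 fell and 4 rose. Slc1a2, a glutamate transporter (-2.18 ± 0.22), and Slc6a5, a glycine transporter (-2.36 ± 0.29), fell, and Slc17a7, a vesicular glutamate transporter (1.68 ± 0.21), and Bche (0.44 ± 0.07) rose. In deleted cTEC Ache fell from 373.5 ± 219 to 51.7 ± 11.7 CPM (-2.89 ± 0.38, edgeR adjusted p = 0.00934) and Abat from 288 ± 92.7 to 145 ± 21.5 CPM (-1.02 ± 0.21, 0.0350). These were the only 2 of 8 tested that passed there.

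Of 11 metabotropic receptor genes tested, 9 were higher and 2 lower in homozygous mTEC, the latter Grm8 (-3.27 ± 0.15) and Gabbr1, a subunit of the GABA-B receptor (-1.43 ± 0.17). All 9 higher genes reached the count minimum only in mTEC, so a difference could hardly go the other way. The 2 lower genes were the only ones that reached it in both subsets. In heterozygous cells 3 rose and 1 fell in cTEC, the muscarinic receptor genes Chrm1 (3.94 ± 0.65) and Chrm4 (1.85 ± 0.51) among those that rose. Only 2 of the 11 reached the count minimum in both cTEC groups (1 higher, 1 lower). Another 2 reached it only in heterozygous cTEC (2 higher) and 7 in neither. In mTEC 3 rose and 4 fell. Of 8 other ligand-gated channel genes tested, P2X and 5-HT3 receptors, 6 were higher and 1 lower in homozygous mTEC, led by P2rx4 (2.35 ± 0.08) and P2rx3 (5.16 ± 0.18). Of these 8, 6 reached the count minimum in both subsets, with 4 higher and 1 lower. In heterozygous cells 3 rose and 4 fell in cTEC, as did P2rx6 (-0.99 ± 0.14), and 1 rose and 5 fell in mTEC, as did P2rx4 (-1.10 ± 0.08). In the deletion set 0 of 2 and 0 of 5 passed (edgeR).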

How the data were processed

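Expression was analysed from a single deposited table of whole-number read counts per gene symbol, which the authors made from polyadenylated RNA of sorted cells. The submitters' processing notes list, without roles, featureCounts, SAMtools, Trimmomatic 0.32, TopHat2 2.0.10, BWA 0.7.5, Bowtie2 2.2.3, Picard 1.105 and MACS2 2.0.10, and the builds mm10 and GRCm38. Neither the annotation nor use of strand in counting is given there. Subunits were matched by symbol, and reads shared between related or overlapping genes may be split in ways that cannot be seen. Chromatin samples were left out.

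Differences were tested in edgeR 4.0.16 under R 4.3.3 (TMM factors, filterByExpr with minimum count 10 and minimum total 15, quasi-likelihood test, two-sided, Benjamini-Hochberg over all genes tested, threshold 0.05). The deletion fit used its 10 libraries, and the transgenic fit its 10 libraries as 4 groups sharing the spread, because the mTEC groups hold 2 libraries each. Log2 fold changes have a prior count of 0.125, and their SE is the log2 fold change divided by the square root of its F statistic. Errors on CPM are SD over libraries, and CPM uses raw totals of 20719630 to 22372633 counts. Where a group had 0 counts, a fold is a bound against 3 counts over the group, and for 1 to 3 counts a ratio with an exact 95% interval is given. Both cover counting error only. The pipeline was tested on simulated data.

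Alternatives were RLE size factors, no factors, no filter, DESeq2 1.42.0, limma-voom (limma 3.58.1), a library-number block, a fit of the 6 cTEC libraries alone and leaving out each library. In each comparison up to 8 subunits per direction are named by smallest adjusted p, or those with the largest mean CPM up to 3 where fewer passed, with the 10 of largest mean CPM over all libraries. Other subunits are named from their family after their values were seen. From each context list up to 2 genes per direction were named. The subunits, the lists and the rule were chosen with earlier results of these data known. Some results under this rule are not reported here.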

Additional observations from a re-analysis of the deposited data

Results flagged for a closer look

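In 10 of the subunit genes named by the rule the effect of transgene dose differed between mTEC and cTEC by a test of the difference itself (edgeR quasi-likelihood test of the interaction, Benjamini-Hochberg over all genes). The values are the log2 difference between heterozygous and homozygous mTEC minus the same difference in cTEC. It was positive in Chrna9 (1.52), Grin2c (2.37) and Gabra4 (1.50). It was negative in Gabrp (-4.89), Grin3a (-2.83), Gria2 (-3.37), Chrnb4 (-3.45), Gria3 (-0.90), Gabrq (-4.60) and Gria4 (-6.86). Gria4 had 0 counts in homozygous cTEC and Gabrq and Chrnb4 had 2 over the group, so the size of these 3 values depends on the prior count. The value of Gabra4 was not called with RLE (adjusted p = 0.0713), without factors (0.0780), without the filter (0.0789), with DESeq2 (0.164), or in the fits without heterozygous cTEC library 2 or 3, heterozygous mTEC library 1 or 2, homozygous cTEC library 1 or 2, or homozygous mTEC library 2.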

How the results depend on the processing

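No called subunit changed direction under any alternative run. In the deletion set the number of lower subunits, 1 in the edgeR fit, was 2 with DESeq2 and 0 with limma-voom, and it ranged from 0 to 2 when a library was left out, while the number higher was 0 to 0. Over all genes the deletion calls were 43 higher and 257 lower with edgeR, 327 and 781 with DESeq2, and 15 and 89 with limma-voom. In cTEC the number lower with dose, 3, became 1 (Grin2c) when only the 6 cTEC libraries were fitted. When a library was left out, the dose counts ranged from 12 to 16 higher and 2 to 4 lower in cTEC, and from 7 to 9 and 15 to 22 in mTEC. The subset counts ranged from 35 to 38 higher and 4 to 6 lower in homozygous cells, and from 32 to 35 and 7 to 7 in heterozygous cells. The interaction ranged from 2 to 3 positive and 14 to 15 negative. Detection in deleted cTEC rose from 19 subunits to 29 when 1 count per library sufficed, and in heterozygous cTEC it fell from 27 to 15 when 10 counts were needed. With a library left out, detection ranged from 19 to 21 in control, 19 to 22 in deleted, 27 to 29 in heterozygous and 19 to 21 in homozygous cTEC, and from 48 to 48 and 56 to 57 in the mTEC groups. Without factors the dose calls of all genes in cTEC split into 5931 higher and 2859 lower, with a median of 0.11. Library numbers were taken to pair samples only where every same-numbered pair correlated above 0.1 in its deviations. In the deletion set 4 of 5 pairs did, at 0.399 to 0.756, and library 3 did not, at 0.0950. There 8 of 10 libraries were closest to their own number, a hint of pairing from the data and not the design. Between cTEC doses the pairs correlated at 0.0525 to 0.104. Between mTEC doses both pairs were at 0.140, but with 2 libraries in a group the deviations mirror each other, so this value cannot show pairing. No main fit used the numbers as pairs. With the library-number block (replicate block) the deletion set gave 3 lower subunits, Chrna9 and Grin2c besides Chrna4, and 398 higher and 822 lower genes. In the cTEC dose contrast the block lost Gabrq and gained Chrnb2 and Chrna9, and in the mTEC dose contrast it lost Gabrb2. Many subunits had fewer than 10 counts in cTEC, so a change of such a gene may not be detectable there at this depth. The cause of these shifts was not tested.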
